A study of Mus musculus with 25 samples.

Results

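The passage of male germ cells from mitotic spermatogonia into meiotic prophase was described in wild-type (WT) mouse testis by setting leptotene-zygotene spermatocytes (the deposited cluster L_Z_SCs) against differentiating spermatogonia (the deposited cluster Diff_SGs) of the same library. The cells were taken by the genotype and cluster columns of the deposited cell table, which gave 427 L_Z_SCs and 654 Diff_SGs, or 1081 of the 1151 cells of the WT library and of 4528 cells in the whole single-cell matrix. The library was made from sorted testis cells with a 4N DNA content at postnatal day 10; the labels do not say how many mice it pools. The remaining libraries of the matrix, here KO A and KO B, came from day 10 cells of the same sort that lack Ythdc2, an RNA helicase gene needed for male meiosis, and they enter only as a side-by-side value for Diff_SGs. The titles carry the word embryo beside P10, and the age label was followed. The labels give a hybrid background of C57BL/6 and DBA/2 for the edited lines of the series; for the WT animal itself no strain is named.

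Differentiating spermatogonia divide several times by mitosis, replicate their DNA once more as preleptotene cells and then enter a long prophase. In leptotene chromosomes are organised on axes of meiosis-specific cohesin and HORMA-domain proteins, SPO11 cuts DNA, and telomeres attach to the nuclear envelope; in zygotene the recombinases pair homologous chromosomes and the synaptonemal complex joins them. STRA8 and MEIOSIN, transcription factors that act together, are known to start this programme in response to retinoic acid, and YTHDC2 with its partner MEIOC is known to keep cells from returning to mitosis.

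With 1 library there is no replicate and no test. UMI counts (unique molecules) were summed over the cells of each cluster and are given as CPM (counts per 1000000 UMIs of the cluster) with an exact 95% Poisson interval, and ratios carry an exact binomial interval; both cover counting error only. The spread over cells is given as percentiles of normalised UMIs, the count divided by the cell's size factor. The clusters were made by the authors from these same genes, so each difference describes what separates the clusters. The sum was 5433721 UMIs for L_Z_SCs and 9698985 for Diff_SGs, and the median cell held 12210 UMIs and 3950 genes in L_Z_SCs, against 14310 UMIs and 4442 genes in Diff_SGs. The median mitochondrial share was 5.50% in L_Z_SCs and 5.68% in Diff_SGs, but its 90th percentile was 7.18% in L_Z_SCs and 13.0% in Diff_SGs. The 10th percentile of UMIs per cell was 8823 in L_Z_SCs and 7335 in Diff_SGs. Diff_SGs thus held a tail of cells with fewer UMIs and a tail with a higher mitochondrial share, whose part in the ratios was not tested. All cells of the matrix had at least 3000 genes, so shallower cells are outside the comparison. The 4N sort leaves out spermatogonia in G1, which have not yet replicated their DNA, so Diff_SGs stand here for cells after replication: the authors' G2/M score had a median of 0.170 in L_Z_SCs and 0.321 in Diff_SGs, and their S score had medians of 0.220 in L_Z_SCs and 0.170 in Diff_SGs.

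A gene was counted as past the threshold at a CPM ratio of at least 2 with at least 20 CPM in the higher cluster. Of 6952 genes at that level, 842 (12.1%) were at least 2-fold higher in L_Z_SCs and 1088 (15.7%) at least 2-fold lower, and 3462 (49.8%) differed by less than 1.5-fold. Higher genes were thus 43.6% of those past the threshold, a share that was 28.5% when UMIs per cell were compared with no depth correction, 51.1% under median scaling and 51.6% with a minimum of 50 CPM, so which direction held more genes depends on the scaling and the minimum. The shares of 12.1% and 15.7% are the background against which the gene lists below are read. The median gene had a log2 ratio of -0.10. The higher genes took 13.4% of all UMIs in L_Z_SCs and 4.67% in Diff_SGs; the lower genes took 4.24% in L_Z_SCs and 11.6% in Diff_SGs. A 4-fold difference was reached by 187 genes upward and 208 downward. Of the higher genes 69.6% were among those the authors marked as highly variable, against 36.8% of the lower genes and 21.1% of all 6952.

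Of 11 leptotene-zygotene markers, 10 were at least 2-fold higher in L_Z_SCs, and their sum was 7945 CPM in L_Z_SCs and 3153 CPM in Diff_SGs. Of 7 markers of differentiating spermatogonia, 5 were at least 2-fold lower in L_Z_SCs and Stra8 was higher. With Stra8 their sum was 1850 CPM in L_Z_SCs and 1007 CPM in Diff_SGs, of which Stra8 took 1658 CPM in L_Z_SCs and 329 CPM in Diff_SGs. Markers of undifferentiated spermatogonia summed to 7.18 CPM in L_Z_SCs and 30.6 CPM in Diff_SGs, and markers of the pachytene stage, of which 3 of 6 were in the matrix, to 78.6 CPM in L_Z_SCs and 67.1 CPM in Diff_SGs, nearly all of it Hspa2. Smooth muscle markers summed to 1.66 CPM in L_Z_SCs and 1.13 CPM in Diff_SGs, and stromal markers to 6.63 CPM in L_Z_SCs and 4.64 CPM in Diff_SGs. Sertoli cell markers summed to 1.66 CPM in L_Z_SCs and 0.722 CPM in Diff_SGs, and the macrophage marker in the matrix, Cd68, to 0.368 CPM in L_Z_SCs and 0.206 CPM in Diff_SGs. No KO cell lay in L_Z_SCs, so that cluster is known from this library alone.

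**Figure D1:**
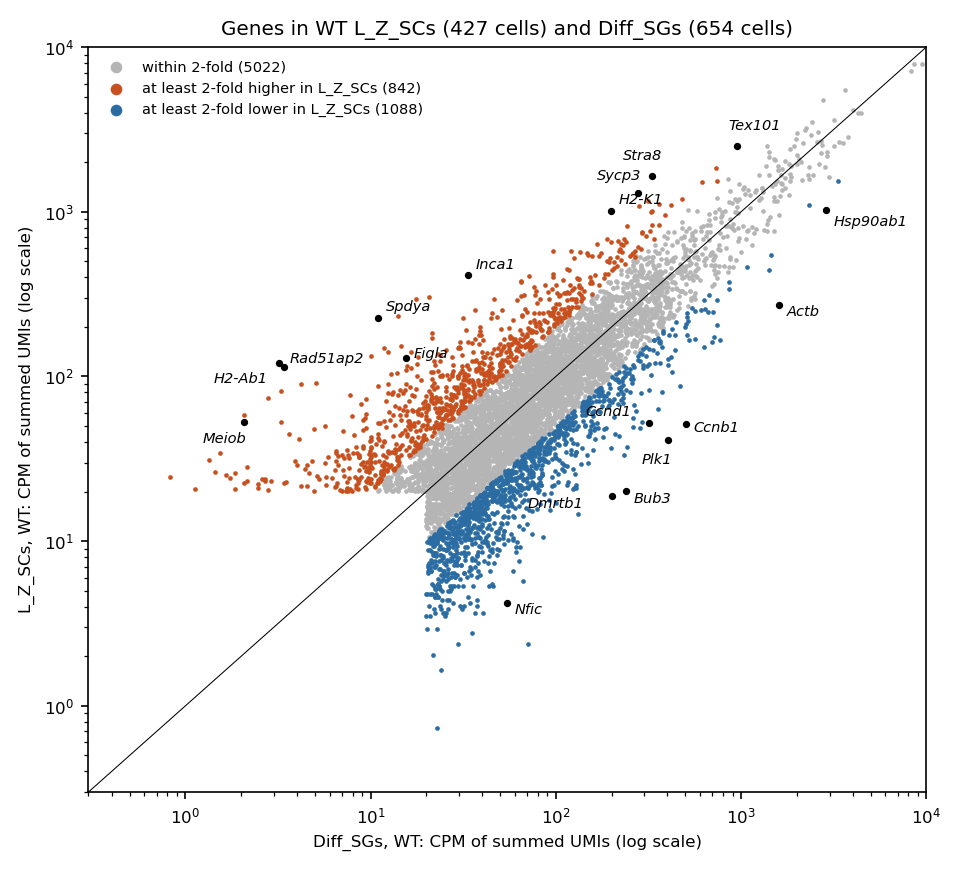
Level of each gene with at least 20 CPM in the higher cluster, in WT L_Z_SCs (y axis, CPM, log scale) and WT Diff_SGs (x axis, CPM, log scale); each point is a gene, coloured by its side of the 2-fold threshold, and the line marks equal levels. Rad51ap2, H2-Ab1 and Meiob stood farthest above the line among the labelled genes, and Nfic, Bub3 and Dmrtb1 farthest below it.

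The promoters of the higher genes are shown first. The 8-base motif CNCCTCAG, known as the motif bound by STRA8 and MEIOSIN, was searched on both strands in the RefSeq window from 250 bases before to 50 bases after each start (GRCm38.p6), among genes with 1 such window. It was held by 114 of 546 higher genes (20.9%), 38 of 711 lower genes (5.34%), 475 of all 4574 genes at 20 CPM or more (10.4%), and 1797 of all 22862 promoters (7.86%). Counting a match in any window of a gene gave 23.5% of higher, 7.00% of lower and 12.5% of all genes at that level. The median G+C content of the windows was 62.0% for higher genes, 62.7% for lower genes, 62.0% for all genes at 20 CPM or more and 52.3% for all promoters. Among 4-fold genes the motif was held by 18.9% of higher and 4.20% of lower genes. The promoters below belong to the named or listed genes that were at least 3.5-fold higher in L_Z_SCs and hold a whole match before the start; each is read 5′ to 3′ on the gene's strand, with the motif or its reverse complement in capitals. Gm4969 is the symbol the files use for Meiosin.
H2-D1 (chr17:35262914-35262973, plus strand): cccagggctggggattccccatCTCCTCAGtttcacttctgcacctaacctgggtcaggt
Inca1 (chr11:70700156-70700305, minus strand): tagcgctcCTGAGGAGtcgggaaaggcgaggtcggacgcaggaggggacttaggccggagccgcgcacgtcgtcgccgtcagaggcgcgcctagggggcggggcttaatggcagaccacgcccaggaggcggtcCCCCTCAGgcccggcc
Hfm1 (chr5:106925921-106925990, minus strand): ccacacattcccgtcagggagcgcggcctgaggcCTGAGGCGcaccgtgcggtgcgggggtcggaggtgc
Figla (chr6:86017071-86017140, plus strand): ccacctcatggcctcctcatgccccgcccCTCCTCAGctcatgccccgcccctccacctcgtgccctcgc
Msh5 (chr17:35046673-35046732, minus strand): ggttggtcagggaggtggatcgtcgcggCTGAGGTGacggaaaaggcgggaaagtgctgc
Hormad2 (chr11:4441163-4441222, minus strand): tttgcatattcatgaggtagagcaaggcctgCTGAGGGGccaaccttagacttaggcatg
Gm4969 (chr7:19118365-19118424, minus strand): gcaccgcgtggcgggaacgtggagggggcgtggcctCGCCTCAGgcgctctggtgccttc

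Inca1, a CDK inhibitor gene whose product binds cyclin A1, had 410 CPM (394 to 428) in L_Z_SCs and 33.6 CPM (30.1 to 37.5) in Diff_SGs, a ratio of 12.2 (10.9 to 13.8), and the printed stretch of its promoter holds a match near each end. Figla, an oocyte transcription factor gene also read in male germ cells here, had 129 CPM in L_Z_SCs and 15.6 CPM in Diff_SGs. Promoters without a match were common too: the windows of Stra8, Sycp3, Tex101, Smc1b and Dmc1 hold none, which says only that these letters are not in those 300 bases. A match is a description of the sequence, and binding was not measured.

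For genes on the other side of the threshold, the motifs of the cell cycle were searched in the same way. The cell cycle homology region TTTGAA was held by 15.6% of lower genes, 11.9% of higher genes, 11.7% of all genes at 20 CPM and 18.5% of all promoters. The E-box CACGTG was held by 14.3% of lower, 8.61% of higher and 11.9% of all genes, and the NF-Y box CCAAT by 44.3% of lower, 44.9% of higher and 41.0% of all. The E2F letters GGCGGGAA were held by 4.50% of lower, 6.04% of higher and 5.68% of all, with 3.36% among the 4-fold lower genes and 10.7% among the 4-fold higher genes (13 of 122). At 4-fold TTTGAA was held by 17.6% of lower and 13.1% of higher genes, CACGTG by 16.8% of lower and 6.56% of higher genes, CCAAT by 53.8% of lower and 45.9% of higher genes, and AACNG by 72.3% of lower and 79.5% of higher genes. TTCGAA, the variant of the cell cycle region, was held by 1.83% of lower and 2.93% of higher genes, and the MYB letters AACNG by 78.5% of lower and 77.5% of higher genes. The M phase promoters below were picked after the search because they hold TTTGAA before the start; the window of Ccnb1 holds none, and in those of Plk1 and Aurka it lies after the start. TTTGAA and CCAAT or their reverse complements are in capitals, over the 100 bases before the start.
Cdk1 (chr10:69352913-69353012, minus strand): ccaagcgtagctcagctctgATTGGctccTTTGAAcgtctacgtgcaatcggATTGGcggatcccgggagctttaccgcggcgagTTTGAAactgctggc
Ube2c (chr2:164769829-164769928, plus strand): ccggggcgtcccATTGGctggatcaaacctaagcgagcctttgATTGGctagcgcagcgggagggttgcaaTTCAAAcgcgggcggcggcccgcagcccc
Cdc20 (chr4:118437344-118437443, minus strand): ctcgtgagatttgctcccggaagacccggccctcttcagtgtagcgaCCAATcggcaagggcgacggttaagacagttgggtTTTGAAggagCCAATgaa

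**Figure D2:**
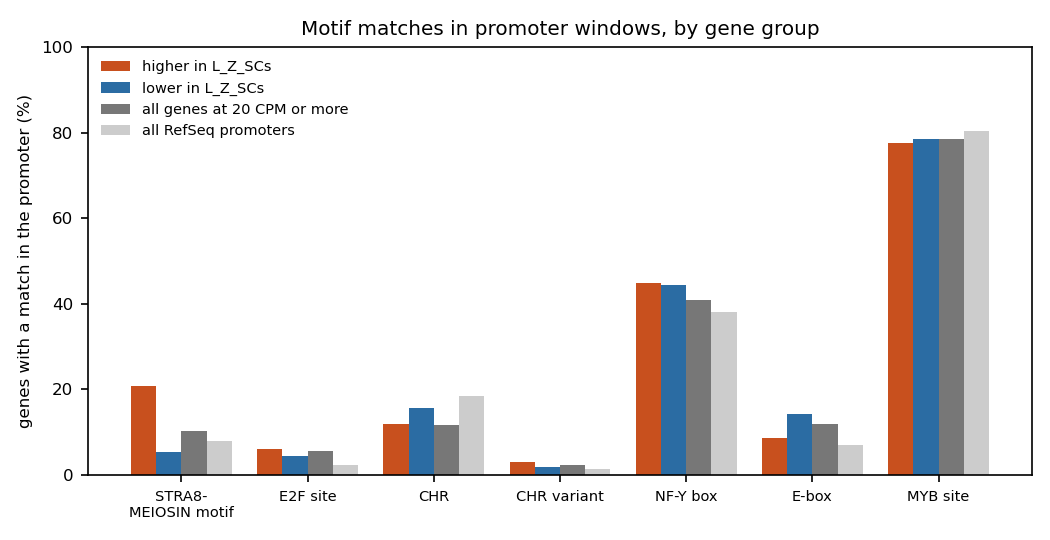
Share of genes whose RefSeq promoter window holds each motif on either strand (y axis, percent), for genes at least 2-fold higher in L_Z_SCs, at least 2-fold lower, all genes at 20 CPM or more, and all RefSeq promoters. The STRA8-MEIOSIN motif stood at 20.9% of higher and 5.34% of lower genes, and the NF-Y box at 44.9% of higher and 44.3% of lower genes.

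Meiotic genes were higher in L_Z_SCs as a group, and most were already present in Diff_SGs. Over the 7 meiotic lists together, 43 of 80 genes at 20 CPM (53.8%) were at least 2-fold higher and 1 was lower, and 64 of the 80 had at least 20 CPM in Diff_SGs. The rest of the 80 reached that level only in L_Z_SCs, so they could not be called lower. The summed level of the 7 lists was 28300 CPM in L_Z_SCs, 13850 CPM in Diff_SGs and 7837 CPM in the 45 undifferentiated spermatogonia of the WT library.

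Among the 12 genes of meiotic entry 6 were higher and 0 lower, with a median log2 ratio of 1.05. Stra8 had 1658 CPM (1624 to 1692) in L_Z_SCs and 329 CPM (318 to 341) in Diff_SGs, a ratio of 5.04. Over cells its 10th percentile, median and 90th percentile were 6.96, 18.9 and 31.4 normalised UMIs in L_Z_SCs, against 0, 1.79 and 8.82 in Diff_SGs. The median L_Z_SCs cell lay above the 90th percentile of Diff_SGs, while the 10th percentile of L_Z_SCs lay below it, so the clusters overlapped. Gm4969 (Meiosin) had 83.9 CPM (76.4 to 92.0) in L_Z_SCs and 22.0 CPM (19.11 to 25.1) in Diff_SGs. Tex101, a germ cell surface protein gene, had 2505 CPM in L_Z_SCs and 949 CPM in Diff_SGs, the largest rise in CPM after those of Rps20 and Rps24 among genes the naming rule admitted. Zcwpw1, a histone reader, was 2.57-fold higher, and Mei1 had 107 CPM in L_Z_SCs and 42.6 CPM in Diff_SGs.

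The genes of the YTHDC2 complex stood below the threshold. Ythdc2 had 266 CPM (252 to 280) in L_Z_SCs and 170 CPM (162 to 178) in Diff_SGs, a ratio of 1.56 (1.46 to 1.68). Meioc had 699 CPM in L_Z_SCs and 490 CPM in Diff_SGs, a ratio of 1.43 (1.37 to 1.49). Rbm46, an RNA-binding partner, had 257 CPM in L_Z_SCs and 268 CPM in Diff_SGs, and the intervals overlapped. Xrn1, the exonuclease that YTHDC2 binds, was lower at 43.8 CPM (38.4 to 49.7) in L_Z_SCs, against 68.3 CPM (63.2 to 73.7) in Diff_SGs. By the summed counts the larger step in Ythdc2 and Meioc lay earlier, since undifferentiated spermatogonia had 37.7 CPM of Ythdc2 and 33.5 CPM of Meioc. That cluster has only 45 WT cells and holds other cell types, whose part in these levels was not tested.

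Of 11 synaptonemal complex and axis genes 9 were higher and 1 was lower, with a median log2 ratio of 1.55. Sycp3, the lateral element protein, had 1296 CPM (1266 to 1326) in L_Z_SCs and 276 CPM (266 to 287) in Diff_SGs, a ratio of 4.69. Syce3 and Tex12, central element genes, were 4.74-fold and 3.61-fold higher, and Hormad2, a HORMA-domain axis gene, was 5.07-fold higher. Hormad1 had 684 CPM in L_Z_SCs and 234 CPM in Diff_SGs. Sycp1, the transverse filament gene, stood apart: it already had 1246 CPM in Diff_SGs, and 1669 CPM in L_Z_SCs, a ratio of 1.34 (1.30 to 1.38). Trip13, the ATPase that removes HORMA-domain proteins from axes, was the lower member, with 66.4 CPM in L_Z_SCs and 138 CPM in Diff_SGs. Its ratio lost the 2-fold threshold under median scaling.

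Meiotic and mitotic cohesin subunits moved in opposite directions for RAD21L and RAD21 and for SMC1B and SMC1A. Rad21l, a meiotic kleisin, had 149 CPM (139 to 160) in L_Z_SCs and 11.8 CPM (9.70 to 14.1) in Diff_SGs, a ratio of 12.7 (10.4 to 15.6), while Rad21, its mitotic counterpart, had 33.3 CPM (28.6 to 38.5) in L_Z_SCs and 147 CPM (140 to 155) in Diff_SGs. Smc1b, the meiotic SMC1, had 1851 CPM in L_Z_SCs and 730 CPM in Diff_SGs, while Smc1a, the mitotic one on the X chromosome, had 48.4 CPM in L_Z_SCs and 169 CPM in Diff_SGs. Rec8, the other meiotic kleisin, did not follow Rad21l: it had 62.9 CPM in L_Z_SCs and 109 CPM in Diff_SGs. Stag3 was 1.55-fold higher. Of 16 mitotic cohesin genes and regulators 2 were higher and 6 lower. Nipbl, which loads cohesin, was 4.18-fold higher with 527 CPM in L_Z_SCs and 126 CPM in Diff_SGs, and the cohesin protectors Sgo1 and Sgo2a and the separase Espl1 with its inhibitor Pttg1 were lower.

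Break formation had 8 of 10 genes higher and 0 lower, with a median log2 ratio of 1.38. Spo11 and Gm960 reached 20 CPM only in L_Z_SCs, so they could not be called lower. Prdm9, the histone methyltransferase that places hotspots, had 243 CPM (230 to 257) in L_Z_SCs and 45.1 CPM (40.9 to 49.5) in Diff_SGs. Spo11, the nuclease itself, was low in both, at 20.4 CPM (16.8 to 24.6) in L_Z_SCs and 2.78 CPM (1.84 to 4.05) in Diff_SGs, and its partner Gm960 (Topovibl) was at 53.6 CPM in L_Z_SCs and 11.9 CPM in Diff_SGs. Rec114 and Hells stayed within 2-fold.

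Strand exchange had 7 of 25 genes higher and 0 lower, with a median log2 ratio of 0.49. Of the 25, 22 had at least 20 CPM in Diff_SGs. Dmc1, the meiotic recombinase, had 402 CPM (385 to 419) in L_Z_SCs and 96.5 CPM (90.4 to 103) in Diff_SGs. Rad51ap2 had 121 CPM (112 to 131) in L_Z_SCs and 3.20 CPM (2.17 to 4.54) in Diff_SGs, and its ratio of 37.9 (26.5 to 56.3) was the highest of any gene the naming rule admitted. Meiob, a meiotic single-strand DNA binder, had 52.8 CPM in L_Z_SCs and 2.06 CPM in Diff_SGs. Brca2, which loads recombinases, was 2.68-fold higher and Hsf2bp, which binds it, 5.66-fold higher. The general single-strand binders Rpa1 and Rpa2 had log2 ratios of -0.82 and -0.68, short of the threshold.

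Crossover factors had 6 of 12 genes higher and 0 lower, and 7 of the 12 had at least 20 CPM in Diff_SGs. Hfm1, Msh5, Rnf212 and Cntd1 reached that level only in L_Z_SCs, so they could not be called lower. The higher genes with 20 CPM in both clusters were AI481877 and Prr19. The helicase gene Hfm1 had 141 CPM (132 to 152) in L_Z_SCs and 12.4 CPM (10.3 to 14.8) in Diff_SGs, and Msh5, of the MutS pair that marks crossover sites, had 105 CPM in L_Z_SCs and 13.9 CPM in Diff_SGs. Tex11, an X-linked partner in this step, had 332.2 CPM in L_Z_SCs and 467 CPM in Diff_SGs. The crossover regulators Rnf212 and Cntd1 were higher but low, with Rnf212 at 29.1 CPM in L_Z_SCs and 11.6 CPM in Diff_SGs and Cntd1 at 33.1 CPM in L_Z_SCs and 7.01 CPM in Diff_SGs.

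Telomere attachment had 7 of 9 genes higher and 0 lower, with a median log2 ratio of 1.79. Only 5 of the 9 had at least 20 CPM in Diff_SGs. Terb1, Terb2, Ccdc155 and Lmna reached that level only in L_Z_SCs, so they could not be called lower. Terb1, which ties telomeres to the envelope, had 134 CPM (124 to 144) in L_Z_SCs and 10.0 CPM (8.11 to 12.2) in Diff_SGs. Ccdc155 (Kash5), the link to dynein, was 6.37-fold higher. Spdya, the CDK2 activator known to work at telomeres, was outside the list under that symbol and was reached by the naming rule: it had 227 CPM (214 to 240) in L_Z_SCs and 11.03 CPM (9.04 to 13.3) in Diff_SGs, with a median cell at 2.54 normalised UMIs in L_Z_SCs and 0 in Diff_SGs. Lmna, the lamin A gene, had 91.8 CPM in L_Z_SCs and 5.05 CPM in Diff_SGs. The shelterin genes parted, with Terf1 at 157 CPM in L_Z_SCs and 57.5 CPM in Diff_SGs, and Terf2 at 26.3 CPM in L_Z_SCs and 51.0 CPM in Diff_SGs. DNA damage signalling had 3 of 16 higher and 1 lower, near the background shares. Atr, Mdc1 and the checkpoint clamp gene Hus1b were higher and Chek2 was lower.

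**Figure D3:**
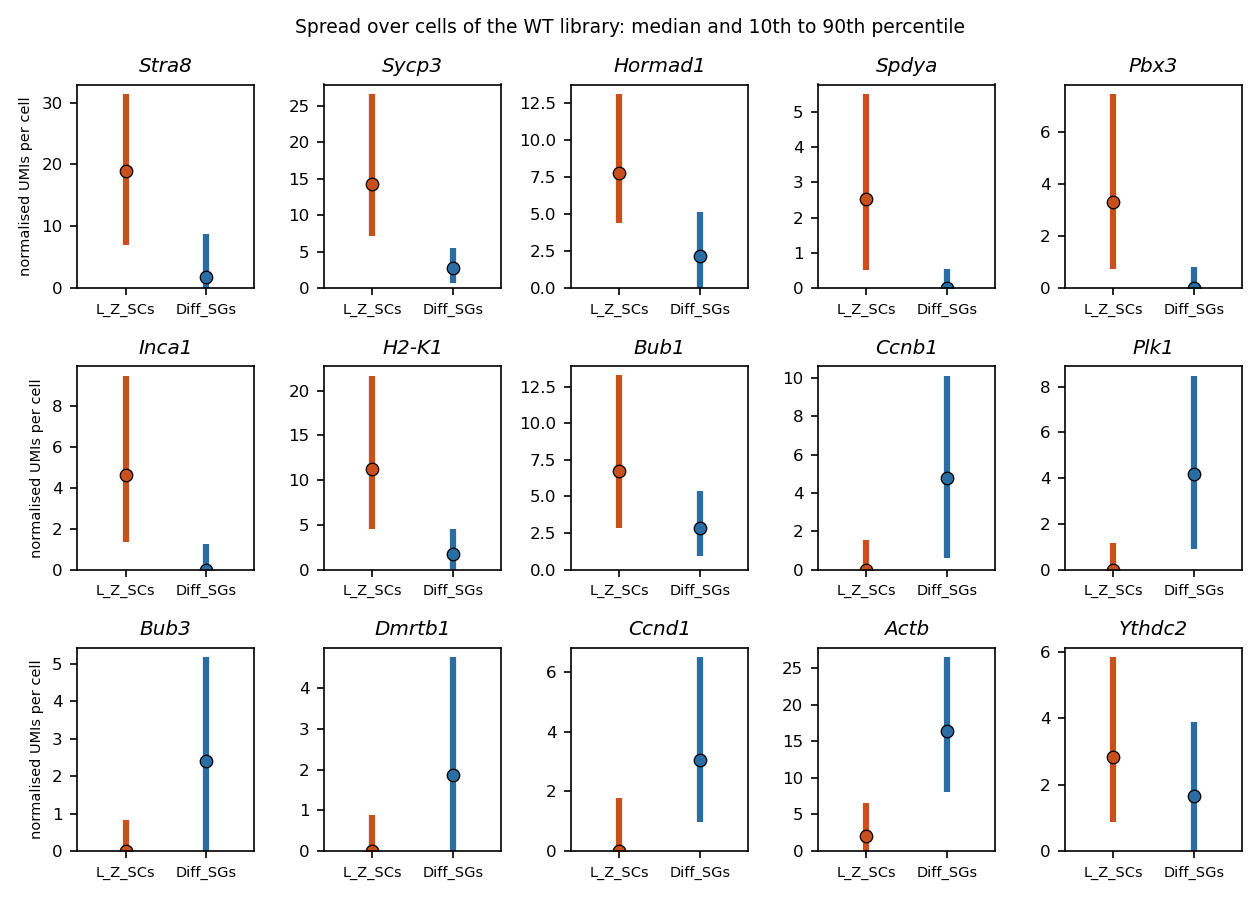
Normalised UMIs per cell (y axis) of 15 genes in WT L_Z_SCs (left, 427 cells) and WT Diff_SGs (right, 654 cells); the point is the median cell and the bar spans the 10th to the 90th percentile. For Inca1 the 10th percentile of L_Z_SCs, at 1.35, lies above the 90th percentile of Diff_SGs, at 1.26, whereas for Ythdc2 the bars overlap between 0.862 and 3.89.

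Many genes of mitosis were lower. Over the 4 mitotic lists together 38 of 78 genes (48.7%) were at least 2-fold lower and 5 were higher. Of the lower genes, 18 were in the list of M phase kinases, cyclins and checkpoint and 10 in that of kinesins. The summed level of the 4 lists was 17160 CPM in L_Z_SCs, 26550 CPM in Diff_SGs and 21740 CPM in undifferentiated spermatogonia. The 4N sort holds Diff_SGs in G2 and M.

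Among 25 M phase kinases, cyclins and checkpoint genes 18 were lower and 1 was higher, with a median log2 ratio of -1.66. Ccnb1, cyclin B1, had 51.4 CPM (45.5 to 57.7) in L_Z_SCs and 504 CPM (490 to 518) in Diff_SGs, 9.81-fold lower (8.70 to 11.1) in L_Z_SCs. Plk1, the polo kinase, had 41.0 CPM in L_Z_SCs and 401 CPM in Diff_SGs, Aurkb, the Aurora B kinase, had 14.5 CPM in L_Z_SCs and 131 CPM in Diff_SGs, and Cdk1 had 48.4 CPM in L_Z_SCs and 285 CPM in Diff_SGs. In the median cell Ccnb1 and Plk1 stood at 0 normalised UMIs in L_Z_SCs and at 4.81 and 4.18 in Diff_SGs. Bub3, a spindle checkpoint protein, had 20.1 CPM (16.5 to 24.2) in L_Z_SCs and 240 CPM (230 to 250) in Diff_SGs, 11.96-fold lower. Its partner kinase Bub1 went the other way, with 610 CPM (589 to 631) in L_Z_SCs and 277 CPM (267 to 288) in Diff_SGs, and its 10th percentile in L_Z_SCs, 2.85 normalised UMIs, was close to the median of Diff_SGs, 2.87. Without depth correction Bub1 came within 2-fold. The anaphase-promoting complex partners Cdc20 and Ube2c kept 163 and 166 CPM in L_Z_SCs, against 697 and 773 CPM in Diff_SGs.

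Kinesins of mitosis and their partners had 10 of 15 lower and 0 higher. Kif20a, which works in cytokinesis, had 55.8 CPM in L_Z_SCs and 262 CPM in Diff_SGs, while Kif23, its neighbour in that step, had 367 CPM in L_Z_SCs and 321 CPM in Diff_SGs. At the kinetochore 7 of 24 genes were lower and 3 higher. Cenpa, the centromeric histone, had 174 CPM in L_Z_SCs and 714 CPM in Diff_SGs, and its chaperone Hjurp was lower too. The inner kinetochore genes Cenpk, Cenpm and Cenpq were 2.00-fold, 2.19-fold and 2.26-fold higher, and without depth correction all 3 came within 2-fold. Among 14 chromosome condensation genes 3 were lower and 1 was higher, near the background shares. Mki67, the proliferation marker Ki-67, had 291 CPM in L_Z_SCs and 738 CPM in Diff_SGs. Top2a was level at 1316 CPM in L_Z_SCs and 1317 CPM in Diff_SGs, and Top2b, its paralog of non-dividing cells, had 294 CPM in L_Z_SCs and 82.3 CPM in Diff_SGs.

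DNA replication genes did not follow the M phase genes. Of 31 licensing and fork genes 2 were higher and 5 lower, near the background shares, with a median log2 ratio of -0.01. Cdt1, a licensing factor, had 9.39 CPM in L_Z_SCs and 42.9 CPM in Diff_SGs, and Mcm5, of the replicative helicase, had 373 CPM in L_Z_SCs and 196 CPM in Diff_SGs. Among the transcription factors of the cycle 8 of 16 were lower and 2 higher. Mybl1, known as the MYB factor of male meiosis, had 87.8 CPM (80.1 to 96.0) in L_Z_SCs and 11.03 CPM (9.04 to 13.3) in Diff_SGs, while Mybl2, its counterpart in cycling cells, had 16.9 CPM in L_Z_SCs and 38.6 CPM in Diff_SGs. E2f6, a repressor of germline genes in other tissues, had 9.75 CPM (7.31 to 12.8) in L_Z_SCs and 36.6 CPM (32.9 to 40.6) in Diff_SGs. Pcgf6, a subunit of the same Polycomb complex, was 4.07-fold higher. Of 7 genes listed as CDK inhibitors of the Cdkn family and CDC25 regulators 0 were higher and 2 lower, while Inca1, outside that list, was higher as given above. Cdkn2a, Cdkn2c and Cdkn2d had log2 ratios of 0.30, 0.54 and 0.18, and the phosphatases Cdc25b and Cdc25c were lower.

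Of 14 differentiating spermatogonia genes 7 were lower, 5 were within 2-fold and 2 were higher, these being Stra8 and Prss50, a testis protease gene. Dmrtb1, known to close the spermatogonial programme in late differentiating spermatogonia, had 18.8 CPM (15.3 to 22.8) in L_Z_SCs and 201 CPM (192 to 210) in Diff_SGs, 10.7-fold lower (8.78 to 13.2). Kit, the stem cell factor receptor, had 20.8 CPM in L_Z_SCs and 58.9 CPM in Diff_SGs, Sohlh1 was 4.61-fold lower, and Ccnd1, cyclin D1, had 52.5 CPM in L_Z_SCs and 319 CPM in Diff_SGs. The transcription factor genes Nfic and Runx3 were among the lowest ratios, at 4.23 and 5.71 CPM in L_Z_SCs and 54.6 and 66.6 CPM in Diff_SGs. Only 4 of 17 genes of undifferentiated spermatogonia reached 20 CPM, 1 of them higher and 1 lower. Taf4b, a TFIID subunit gene, was higher at 274 CPM in L_Z_SCs and 104 CPM in Diff_SGs, Zbtb16 (PLZF) was lower at 3.50 CPM in L_Z_SCs and 20.9 CPM in Diff_SGs, and Sox3 and Foxo1 were within 2-fold. All 4 genes past the threshold among 9 of DNA methylation were lower, among them Dnmt3b, a de novo methyltransferase, at 4.23 CPM in L_Z_SCs and 34.4 CPM in Diff_SGs, and Tet3, a demethylating oxygenase, at 22.3 CPM in L_Z_SCs and 79.8 CPM in Diff_SGs.

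The p53 response had 5 of 12 genes lower and 2 higher. Trp53 had 6.63 CPM (4.64 to 9.17) in L_Z_SCs and 58.4 CPM (53.7 to 63.4) in Diff_SGs, and its targets Ccng1, Phlda3, Btg2 and Bax were lower, at 10.7, 11.2, 13.99 and 78.0 CPM in L_Z_SCs and 85.1, 48.7, 59.1 and 231 CPM in Diff_SGs. The target Sesn1 was higher, at 25.4 CPM in L_Z_SCs and 11.6 CPM in Diff_SGs, and lost the threshold without depth correction. The list of serine and one-carbon enzymes, which also holds stress response genes, had 6 of 9 lower and 1 higher. Phgdh, the first enzyme of serine synthesis, had 4.05 CPM in L_Z_SCs and 37.3 CPM in Diff_SGs. Atf4, a transcription factor of amino acid supply counted among the 6, had 38.8 CPM in L_Z_SCs and 102 CPM in Diff_SGs. The higher member was Sesn2, which is not such an enzyme, at 32.0 CPM in L_Z_SCs and 7.22 CPM in Diff_SGs.

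**Figure D4:**
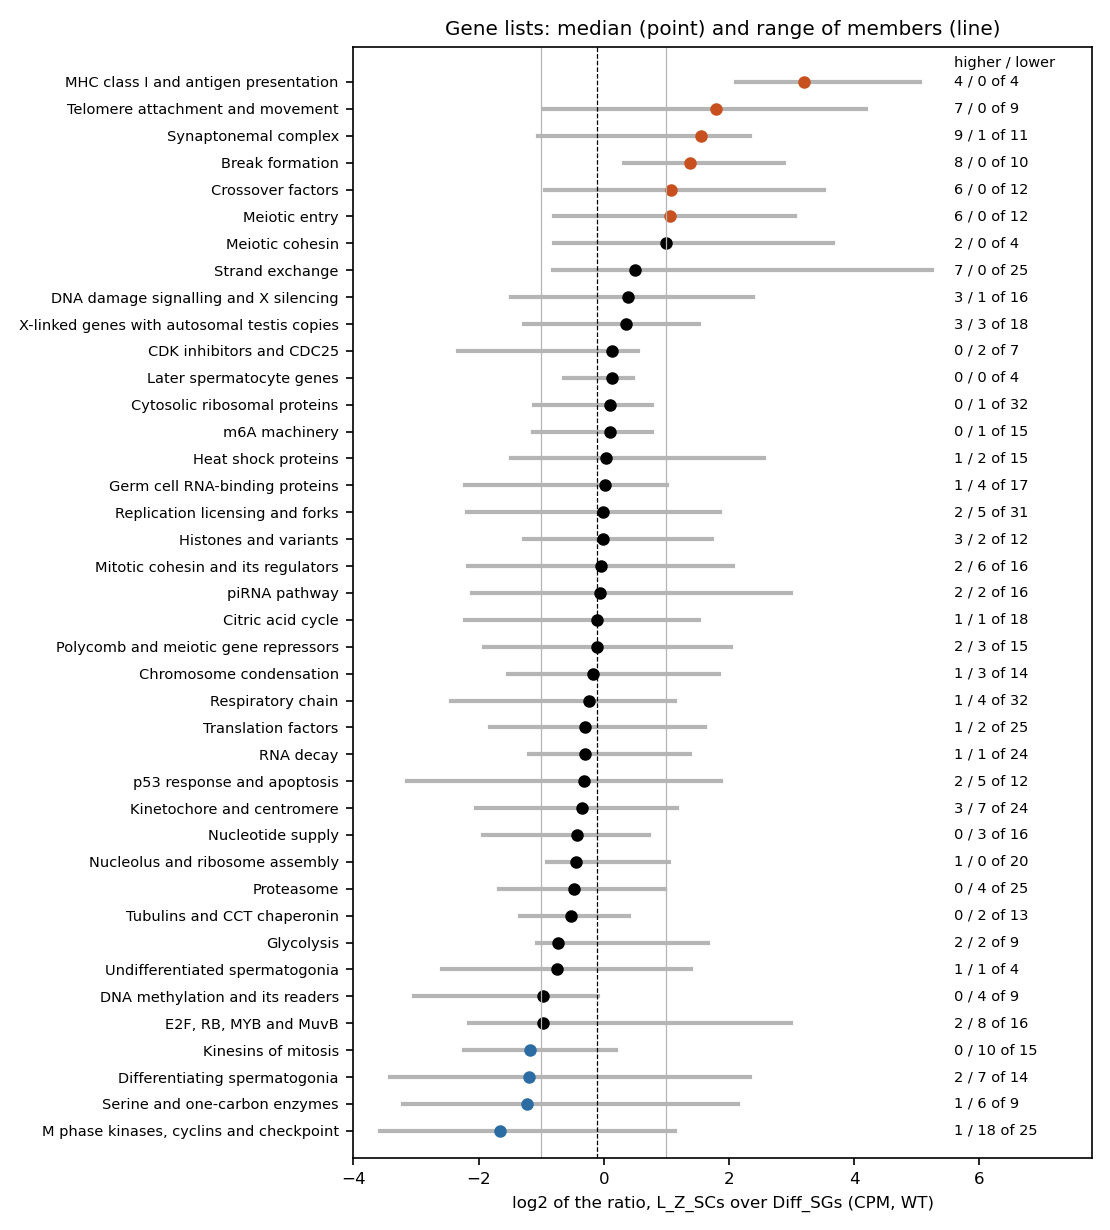
Log2 of the CPM ratio of L_Z_SCs over Diff_SGs (x axis) for each of the 40 gene lists, with the median of members at 20 CPM or more as a point, their range as a line, and the number higher and lower at the right; the dashed line is the median of all genes, -0.10. Antigen presentation, telomere and synaptonemal complex lists lie at the top with medians of 3.20, 1.79 and 1.55, and M phase kinases and cyclins at the bottom with -1.66. Only 1 of 4 antigen presentation genes and 5 of 9 telomere genes had at least 20 CPM in Diff_SGs.

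Antigen presentation genes were the list with the highest median. Of 10 genes in the matrix 4 reached 20 CPM and all 4 were higher, with log2 ratios between 2.12 and 5.06; they reached that level only in L_Z_SCs, except H2-K1. H2-K1, an MHC class I heavy chain, had 1008 CPM (981 to 1035) in L_Z_SCs and 199 CPM (190 to 208) in Diff_SGs, with 10th, 50th and 90th percentiles over cells of 4.57, 11.3 and 21.7 normalised UMIs in L_Z_SCs and 0, 1.77 and 4.57 in Diff_SGs. H2-D1, another class I heavy chain, had 234 CPM (222 to 248) in L_Z_SCs and 14.02 CPM (11.8 to 16.6) in Diff_SGs. H2-Ab1, a class II beta chain, had 113 CPM (105 to 123) in L_Z_SCs and 3.402 CPM (2.34 to 4.78) in Diff_SGs. B2m, the light chain that class I needs at the cell surface, had 29.1 CPM (24.7 to 34.0) in L_Z_SCs and 6.70 CPM (5.17 to 8.54) in Diff_SGs. The peptide transporter gene Tap1 had 0 UMIs in both clusters, Tap2 had 3.50 CPM in L_Z_SCs and 0.619 CPM in Diff_SGs, and the class II gene H2-Eb1 had 2.02 CPM in L_Z_SCs and 0.825 CPM in Diff_SGs. H2-T23 was level, at 4.79 CPM in L_Z_SCs and 4.95 CPM in Diff_SGs. The listed genes H2-Aa, H2-Q1 and Cd74 were not in the matrix. Cd68, the macrophage marker in the matrix, was at 2 UMIs in each cluster, and the median L_Z_SCs cell held 1.052 normalised UMIs of H2-Ab1. Class I genes differ between strains and resemble each other, so the split of reads among them is uncertain.

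Further genes with the highest ratios had no list. Pbx3, a homeobox gene, had 297 CPM (282 to 311) in L_Z_SCs and 17.5 CPM (15.0 to 20.4) in Diff_SGs, and Rbpms2, an RNA-binding protein gene, had 306 CPM (291 to 321) in L_Z_SCs and 20.6 CPM (17.9 to 23.7) in Diff_SGs. In both genes the 10th percentile of L_Z_SCs cells was above 0, at 0.722 and 1.04 normalised UMIs, and the median Diff_SGs cell held none. Pparg, a nuclear receptor known from fat cells, had 74.2 CPM (67.1 to 81.8) in L_Z_SCs and 2.78 CPM (1.84 to 4.05) in Diff_SGs. Fbxo47, needed for meiosis in male mice, had 89.6 CPM in L_Z_SCs and 4.23 CPM in Diff_SGs. Among the lower genes, Actb, cytoplasmic beta actin, had 273 CPM (260 to 288) in L_Z_SCs and 1601 CPM (1576 to 1626) in Diff_SGs, and its 90th percentile in L_Z_SCs, 6.58 normalised UMIs, lay below the 10th percentile of Diff_SGs, 8.08. Hsp90ab1, the constitutive HSP90, had 1031 CPM in L_Z_SCs and 2886 CPM in Diff_SGs, the largest fall in CPM of all genes the naming rule admitted.

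The stage before Diff_SGs is set beside the step, and no stage after L_Z_SCs was compared. From undifferentiated spermatogonia to Diff_SGs to L_Z_SCs, Stra8 had 211, 329 and 1658 CPM, Gm4969 had 2.09, 22.0 and 83.9 CPM, and H2-K1 had 161, 199 and 1008 CPM. Dmrtb1 had 28.3, 201 and 18.8 CPM along the same stages, Ccnd1 had 108, 319 and 52.5 CPM and Plk1 had 150, 401 and 41.0 CPM, so these were highest in Diff_SGs. Phgdh was lower at each stage, at 189, 37.3 and 4.05 CPM. The undifferentiated cluster has only 45 WT cells and holds other cell types: its smooth muscle markers summed to 2731 CPM and its stromal markers to 699 CPM, and their part in its levels was not tested. Lmna at 69.1 CPM, H2-D1 at 168.5 CPM and B2m at 130 CPM in that cluster are given with this.

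Diff_SGs of the KO libraries show how far another library can differ at the same named stage. Ythdc2, the gene the KO cells lack, had 50.4 CPM in KO A and 44.2 CPM in KO B, against 170 CPM in WT Diff_SGs. Its difference is therefore no measure of the spread between libraries. Ccnb1 had 454 CPM in KO A and 460 CPM in KO B, against 504 CPM in WT Diff_SGs. Plk1 had 424 CPM in KO A and 366 CPM in KO B, against 401 CPM in WT Diff_SGs, and H2-K1 had 182 CPM in KO A and 143 CPM in KO B, against 199 CPM in WT Diff_SGs. Ccnb1, Plk1 and H2-K1 differed less between libraries than between the WT clusters. Gm4969 had 6.12 CPM in KO A and 6.50 CPM in KO B, against 22.0 CPM in WT Diff_SGs, and Tex12 had 73.6 CPM in KO A and 91.8 CPM in KO B, against 189 CPM in WT Diff_SGs. Cox7b, an X-linked respiratory chain gene, had 210 and 213 CPM in the KO libraries, against 52.2 CPM in WT Diff_SGs and 9.57 CPM in L_Z_SCs. Genotype and library cannot be told apart here.

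**Figure D5:**
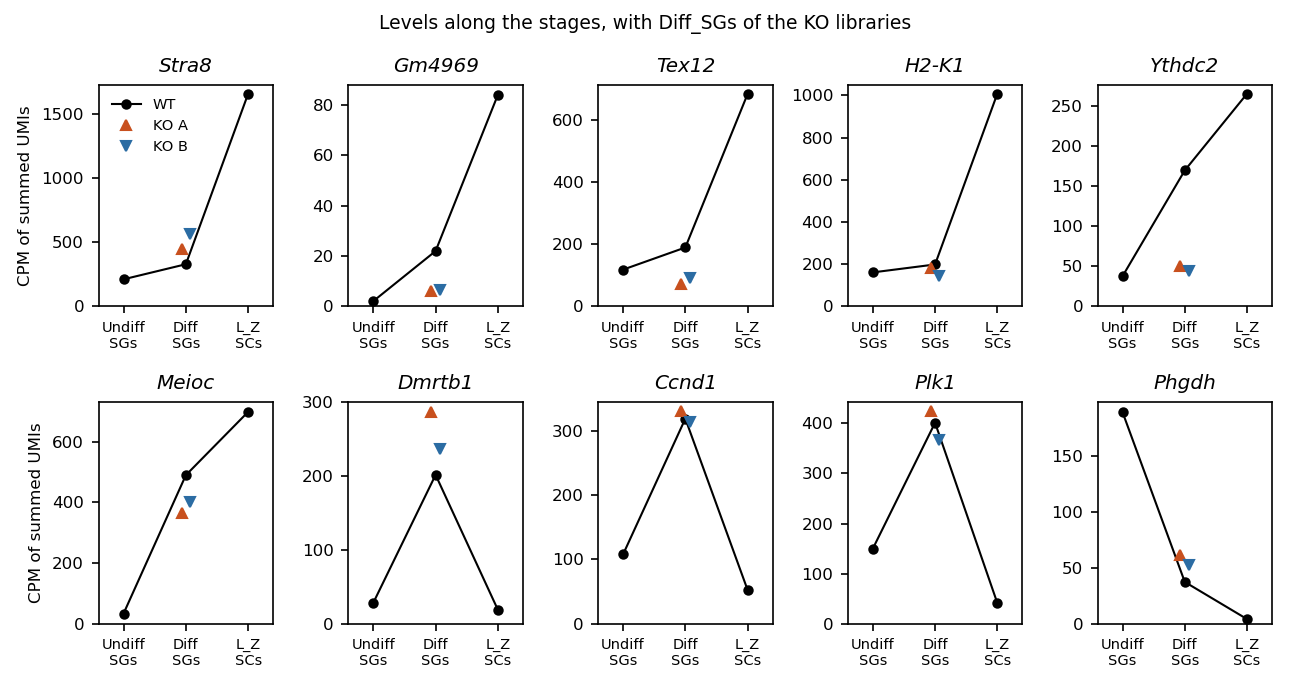
Level (y axis, CPM) of 10 genes in WT undifferentiated spermatogonia (45 cells), WT Diff_SGs (654 cells) and WT L_Z_SCs (427 cells), joined by a line, with Diff_SGs of KO A and KO B as triangles; each panel has its own scale starting at 0. Stra8, Gm4969, Tex12 and H2-K1 are highest in L_Z_SCs, and Dmrtb1, Ccnd1 and Plk1 peak in Diff_SGs.

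The X chromosome is known to be silenced later, in pachytene. In L_Z_SCs the median log2 ratio was 0.01 over 244 X-linked genes and -0.11 over 6673 autosomal genes, a gap of 0.12 that was 0.23 after thinning to 5000 UMIs per cell and 0.26 at a minimum of 50 CPM. Of X-linked genes 42 (17.2%) were at least 2-fold higher and 33 (13.5%) lower, against 11.9% and 15.8% of autosomal genes. Single autosomes differed too: their medians ran from -0.28 on chromosome 8 to 0.01 on chromosome 1, and 16.2% of chromosome 17 genes were higher. The chromosome took 2.61% of UMIs in L_Z_SCs, 2.31% in Diff_SGs and 2.20% in undifferentiated spermatogonia. Higher X-linked genes included Eras, a RAS-like gene of embryonic stem cells, at 23.2 CPM in L_Z_SCs and 2.68 CPM in Diff_SGs, and Maoa, monoamine oxidase A, at 30.6 CPM in L_Z_SCs and 3.92 CPM in Diff_SGs. Usp26, a testis deubiquitinase gene, was lower at 207 CPM in L_Z_SCs and 739 CPM in Diff_SGs. Eras, Maoa and Usp26 were picked after their values were seen. Of 18 X-linked genes with autosomal testis copies, and the copies, 3 were higher and 3 lower, near the background shares.

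Higher genes were longer than lower genes by median, and had the same median motif score. The deposited score, named for a U motif in the gene table with no account of how it was made, had a median of 0.013 in higher genes, 0.013 in lower genes and 0.014 in all. The median genomic length was 30559 bases for 838 higher genes, 19318 bases for 1087 lower genes and 24349 bases for all 6921 with a place in RefSeq.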

How the data were processed

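Cells of the WT library were taken by the deposited genotype and cluster names. In the deposited matrix each value is the natural log of 1 plus a size-factor-scaled UMI count, as the authors' cell table lets one check, and that table gives UMI counts, the size factor and cell cycle scores (each a score) and the mitochondrial fraction per cell. Cell Ranger 3.0.2, Scanpy and the builds mm10 and GRCm38 are named per the submitters' processing notes; steps and cell filters are not given in the sources used here. Undoing the log and the deposited size factor gave whole counts for 100.0% of values within 0.001; they held 99.94% of the deposited UMIs over 14103 genes and 4528 cells. No barcode was shared between libraries (0), and 0 columns belonged to other samples. The KO libraries could not be tied to a particular KO sample. Symbols were matched to RefSeq for 13629 genes; promoters are from RefSeq.

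Counts were summed per cluster and divided by the cluster's total per 1000000 (numpy 2.4.6, scipy 1.17.1, pandas 2.3.3). A floor of 3 UMIs stood in for lower counts in ratios. Called genes had a ratio of 2 and 20 CPM in the higher cluster. Intervals were tested on simulated counts. Named genes were the 20 highest and 20 lowest ratios and the 10 largest differences in CPM each way among genes with 50 CPM and a name that is not predicted, mitochondrial or a pseudogene, the list members, and Ythdc2, Meioc, Rbm46 and Xrn1. Members and lists were chosen with earlier results of these data known. Alternatives were median scaling, no depth correction, the mean of normalised values, cells thinned to 5000 UMIs, leaving out doublets (Scrublet in scanpy 1.11.5) or cells with 3 or more smooth muscle, stromal or globin UMIs, and other minimum levels and folds. Doublets were kept in the values given. Values of some list members are not reported here.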

Additional observations from a re-analysis of the deposited data

How the results depend on the processing

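No paired analysis was possible because 1 WT library gives no replicate and no test. The counts of 842 higher and 1088 lower genes became 607 and 1521 without depth correction, 960 and 920 under median scaling, and 948 and 1082 with the mean of normalised values, so the share of higher genes among all called moved between 28.5% and 51.1%, against 43.6%. Thinning every cell to 5000 UMIs gave 878 and 1271, with 773 and 1029 of the genes shared. Leaving out 3 called doublets (1 in L_Z_SCs, 2 in Diff_SGs) gave 840 and 1098, and leaving out 2 cells (1 in each cluster) that held somatic or red blood cell UMIs gave 841 and 1087. A minimum of 50 CPM gave 612 and 574, one of 10 CPM gave 1023 and 1476 and no minimum gave 2006 and 2538, which follow from the genes admitted, and a 4-fold threshold over the same genes gave 187 and 208. The X chromosome's median log2 ratio stood 0.12 above that of autosomes, 0.23 after thinning and 0.26 at 50 CPM, where the cause was not tested. Of 225 named genes past 2-fold, at most 17 came within 2-fold under the 6 alternatives that were run on them, these under median scaling. The number that changed direction, 0, says little because the genes were chosen as past 2-fold. Outside thinning the largest move in log2 ratio was 0.37, too small to reverse such a gene. Thinning, with a largest move of 1.31, was the only setting in which a reversal was possible. The floor of 3 UMIs is 0.552 CPM in L_Z_SCs and 0.309 CPM in Diff_SGs.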

Other observations

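Housekeeping lists are read against the background shares of 12.1% higher and 15.7% lower and the median log2 ratio of all genes, -0.10. Cytosolic ribosomal protein genes had 0 of 32 higher and 1 lower, with a median log2 ratio of 0.10 and a sum of 66060 CPM in L_Z_SCs and 63540 CPM in Diff_SGs. Within that level sum the members went both ways: Rps20 had 4756 CPM in L_Z_SCs and 2777 CPM in Diff_SGs, and Rps2 had 1539 CPM in L_Z_SCs and 3321 CPM in Diff_SGs. In Diff_SGs the 10th percentile and median over cells were 10.1 and 30.4 normalised UMIs for Rps20, and 11.5 and 35.4 for Rps2. In L_Z_SCs they were 38.0 and 55.6 for Rps20, and 8.88 and 15.8 for Rps2. Ribosomal protein genes have many pseudogene copies, so single values are uncertain. Eif2s2, a subunit of the initiation factor that carries the first tRNA, had 1113 CPM (1085 to 1141) in L_Z_SCs and 362 CPM (350 to 374) in Diff_SGs, and stood alone among 25 translation factors in being higher. The proteasome had 0 of 25 higher and 4 lower, near the background share of lower genes, and its median log2 ratio of -0.48 was below that of all genes. The nucleolar list had 1 of 20 higher and 0 lower, with a median of -0.45, also below that of all genes.

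Among respiratory chain genes 1 of 32 was higher and 4 were lower, the latter near the background share. Mdh2, the citric acid cycle malate dehydrogenase, had 80.2 CPM in L_Z_SCs and 375 CPM in Diff_SGs, but 778 and 734 CPM in Diff_SGs of KO A and KO B. Cox8a likewise had 51.2 CPM in L_Z_SCs and 159 CPM in Diff_SGs of WT, but 616 and 653 CPM in those of the KO libraries, so Diff_SGs of the libraries differed in these genes as well, and the cause was not tested. Of the testis histone variants, Hist1h2aa and Hist1h2ba were 3.33-fold and 2.67-fold higher in L_Z_SCs, and Hist1h2aa varied widely over cells, with a 10th and 90th percentile of 0 and 20.3 normalised UMIs in L_Z_SCs and 0 and 7.52 in Diff_SGs. Among 15 m6A machinery genes 0 were higher and 1 was lower, Igf2bp1, at 34.6 CPM in L_Z_SCs and 75.4 CPM in Diff_SGs. By chromosome, the lowest median log2 ratio was that of chromosome 8, -0.28 over 381 genes.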
